A study of Mus musculus with 9 samples.

Results

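Retinas of 3 groups of mice were compared for 10 genes of the visual cycle: Rlbp1, Rpe65, Lrat, Rdh5, Rdh8, Rdh10, Rdh11, Rdh12, Rbp3 and Abca4. The genes were chosen by symbol for their roles in retinoid handling, and all 10 were found among the 47729 gene identifiers of the count table. Expression was measured by bulk RNA sequencing of whole retina in 9 libraries, 3 in each group. Yap CKO retinas were homozygous for a floxed Yap allele and carried Rax-CreERT2, a tamoxifen-dependent Cre that acts in Müller cells, the main glia of the retina. Control retinas had the floxed Yap alleles without the Cre. Every animal of both groups was injected with 4-hydroxytamoxifen on postnatal day 10, and retinas were taken on postnatal day 60 (P60), 1 retina per library. C57 retinas were wild type on the same C57Bl6/J background, taken on postnatal day 30, and are copies of records from an earlier series. For control samples the genotype label gives Yap CKO and names no Cre, so the series' design text was followed. Column names of both P60 groups contain the letters MNU, the usual short name of N-methyl-N-nitrosourea, a photoreceptor toxin, whereas the labels mention no such treatment.

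In the visual cycle, 11-cis retinal bound to opsin is turned by light into the all-trans form, which photoreceptors reduce to retinol and pass to neighbouring cells. The pigment epithelium stores retinol as esters, converts it back to the 11-cis form and returns it across the matrix that surrounds the outer segments. Müller glia also hold 11-cis retinoid and are known to supply cones. Photoreceptors make the matrix carrier Rbp3, the outer segment transporter Abca4 and the retinal reductases Rdh8 and Rdh12, while Rdh11, a further retinal reductase, is found in many cell types. Rlbp1, which binds 11-cis retinoids, and Rdh10, which oxidises retinol, are made in Müller glia and the pigment epithelium. Lrat, Rpe65 and Rdh5 carry out esterification, isomerisation and the oxidation of 11-cis retinol in the pigment epithelium.

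Total counts were 34739679 to 37629264 in the P60 libraries and 13760765 to 16808499 in the C57 libraries. Yap1, the deleted gene, had 15.2, 21.4 and 24.0 CPM (read counts scaled to library size, with TMM factors over the 9 libraries) in Yap CKO 1, 2 and 3, against 66.3, 60.4 and 56.9 CPM in control 1, 2 and 3 and 23.9, 25.8 and 31.1 CPM in C57. It was 3.04-fold lower in Yap CKO than in control (adjusted p = 0.0327, edgeR quasi-likelihood test with Benjamini-Hochberg adjustment, as for every adjusted p here unless another tool is named). That call was lost without Yap CKO 2 (adjusted p = 0.167), control 1 (0.111) or control 2 (0.106), with log2 fold changes of -1.75 to -1.43 over all libraries left out. Yap CKO overlapped C57 for Yap1 and was not called against it (log2 -0.41, adjusted p = 0.126), whereas control was 2.30-fold above C57 (adjusted p = 0.000348). Rod markers, as the mean log2(CPM + 1) of 20 genes, stood at 9.11, 8.24 and 5.18 in Yap CKO 1, 2 and 3, at 8.99, 6.82 and 8.04 in control 1, 2 and 3, and at 11.3 to 11.6 in C57. Lens markers, by the same measure, were at 5.08 in Yap CKO 3 and at most 1.43 in any other library. Xist marked Yap CKO 1, Yap CKO 2, C57 1 and the unnumbered C57 library as female, and Y-linked transcripts marked the others as male, so no control library was female. The C57 group differs from both P60 groups in age, tamoxifen, the floxed alleles, source series, depth and the MNU letters, and these cannot be told apart. In whole retina, fewer cells of a type and less RNA per cell cannot be told apart either, and p-values measure the spread between these libraries, since the labels do not say that the retinas came from separate animals.

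Against C57, most of the visual cycle was low at P60 (the plot of CPM by library). In control against C57, 8 of the 10 genes were called lower and 1, Rdh10, higher. Over the 15820 genes tested, 45.5% were called, 22.4% lower and 23.1% higher. In Yap CKO against C57, 5 were called lower, namely Abca4, Rdh12, Rdh11, Rlbp1 and Rpe65, and Rdh10 higher. Over the 15840 genes tested, 40.5% were called, 20.2% lower and 20.3% higher. In each of these comparisons, 8 of the 10 had negative log2 fold changes. In Yap CKO against control none of the 10 was called, where 33 of 16539 genes were (0.2%, with 0.0181% higher and 0.181% lower). At an unadjusted p under 0.05, 1 of the 10 passed there, Rlbp1, as did 2950 of the 16539 genes tested. The median log2 fold change of the 10 genes was 0.06 in Yap CKO against control, -1.81 in Yap CKO against C57 and -1.66 in control against C57. Over all genes tested, these medians were 0.01, 0.02 and 0.03. The libraries of the groups did not overlap for 1 of the 10 in Yap CKO against control (25% of all genes tested), 9 in Yap CKO against C57 (55%) and 9 in control against C57 (58.5%). The 2 comparisons with C57 share the C57 libraries and are not independent.

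**Figure D1:**
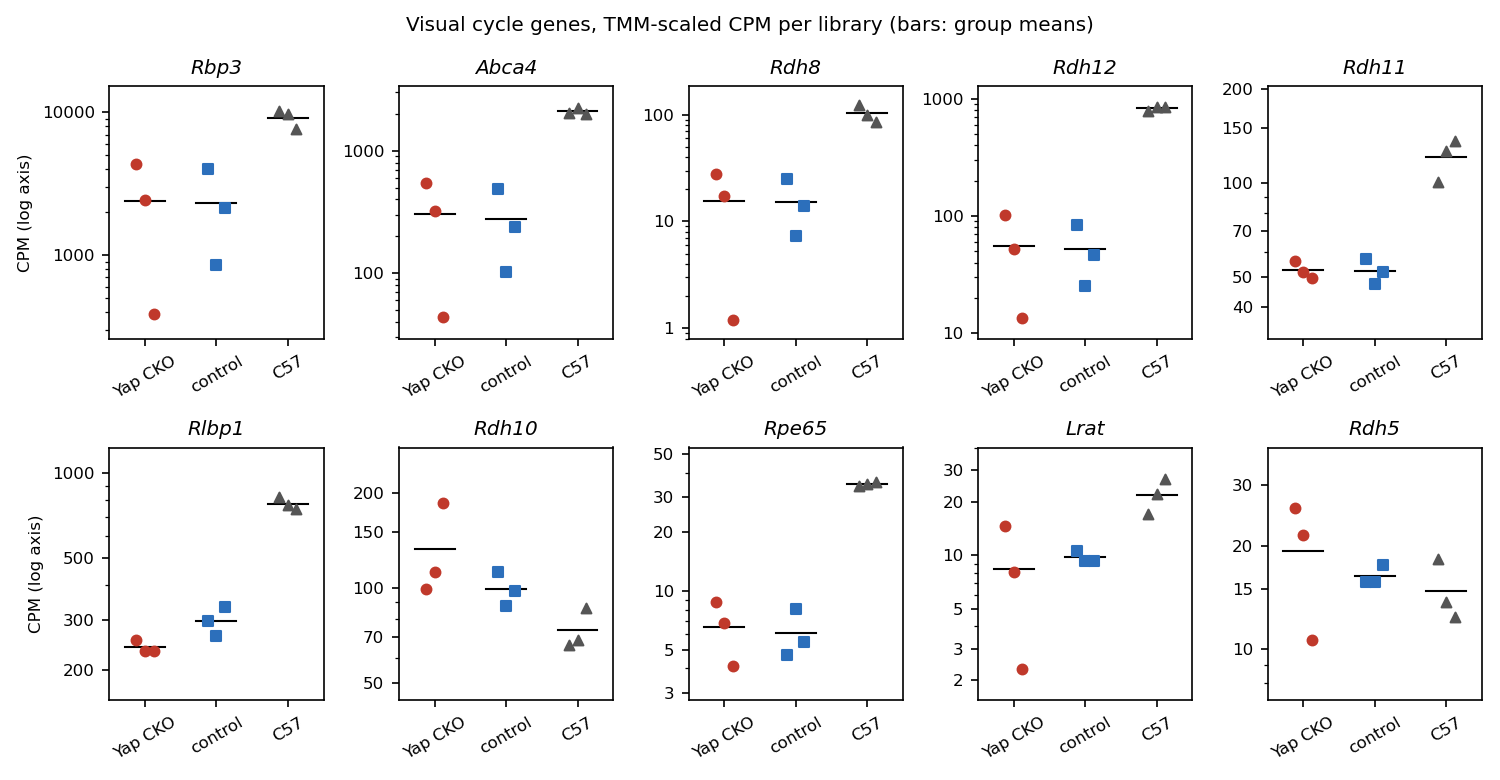
CPM of each of the 10 genes (log axis, a scale of its own in each panel) in Yap CKO, control and C57 libraries; points are libraries and bars are group means. Photoreceptor genes (Rbp3, Abca4, Rdh8, Rdh12) spread widely within both P60 groups, with Yap CKO 3 lowest, and Rdh10 is the gene whose P60 libraries all lie above C57.

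**Figure D2:**
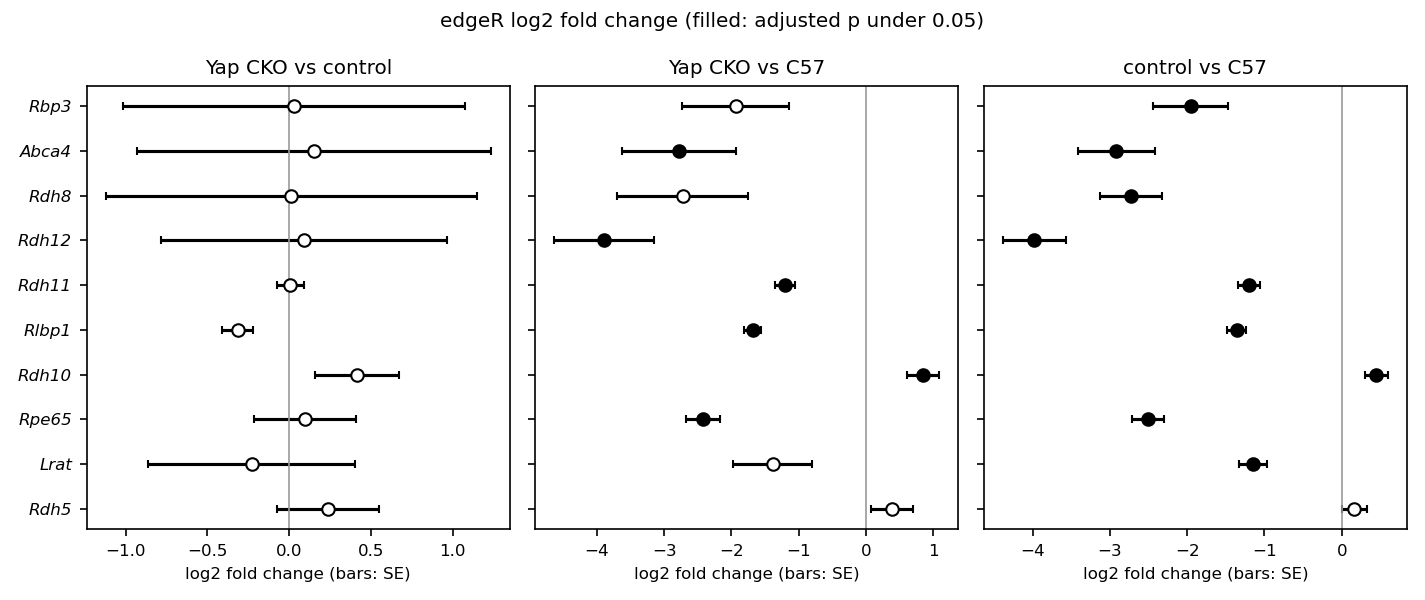
Log2 fold changes from edgeR (points, with SE as bars) for the 10 genes in the 3 comparisons; filled points passed an adjusted p of 0.05. No point is filled in Yap CKO against control, 6 are filled in Yap CKO against C57 and 9 in control against C57.

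Per kilobase of exon, Rbp3 had the highest mean level in each group, at 451 CPM per kb in Yap CKO, 441 in control and 1734 in C57. Below it in C57 came Rdh12 at 282 and Rlbp1 at 264 CPM per kb, whose libraries overlapped, then Abca4 at 175, Rdh8 at 73.4 and Rdh11 at 35.0, each clear of the next. Rpe65 at 18.1 and Rdh10 at 17.7 CPM per kb overlapped in C57, as did Rdh5 at 5.28 and Lrat at 4.10. Rlbp1 ranked next after Rbp3 in both P60 groups, at 81.6 CPM per kb in Yap CKO and 101 in control, followed by Rdh10 at 31.9 in Yap CKO and 23.9 in control. Its libraries overlapped those of Rbp3 in Yap CKO and not in control. From Rdh10 down to Rdh5, every neighbour in the order overlapped in its libraries in both P60 groups, and Rdh5, Rpe65 and Lrat then overlapped in Yap CKO but not in control. Lrat was lowest in all 3 groups, at 1.56 CPM per kb in Yap CKO, 1.82 in control and 4.10 in C57. Together the 10 genes took 0.583%, 0.364% and 0.101% of all counts in Yap CKO 1, 2 and 3, and 0.534%, 0.160% and 0.325% in control 1, 2 and 3. In C57 1, 2 and the unnumbered library they took 1.21%, 1.18% and 0.975%. Rbp3 made up most of this in each library except Yap CKO 3, where it was 41.7% of the 10 genes' counts and Rlbp1 25.03%.

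The start regions of the photoreceptor genes are shown because these genes moved together through the P60 libraries, in the order of the rod marker mean. Whether these regions have a part in that was not tested. Windows run from 250 bases before to 50 after the gene's start (RefSeq, GRCm38.p6, strand of the gene), and 9 of the 10 genes had one. Capitals mark TAATCC or its reverse complement GGATTA, letters known to be bound by the photoreceptor factors CRX and OTX2, and TGCTGA or its reverse complement TCAGCA, the half-site of the Maf-type element bound by the rod factor NRL. The windows lie at chr14:33953753-33954052 for Rbp3, chr3:122044210-122044509 for Abca4, chr9:20818244-20818543 for Rdh8 and chr12:79208663-79208962 for Rdh12, all on the plus strand.
Rbp3: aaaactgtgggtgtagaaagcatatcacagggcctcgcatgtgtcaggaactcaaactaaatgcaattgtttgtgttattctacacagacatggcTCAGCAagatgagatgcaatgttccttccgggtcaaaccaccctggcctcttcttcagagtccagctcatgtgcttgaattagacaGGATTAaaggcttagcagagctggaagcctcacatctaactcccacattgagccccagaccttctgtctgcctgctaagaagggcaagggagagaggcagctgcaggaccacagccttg
Abca4: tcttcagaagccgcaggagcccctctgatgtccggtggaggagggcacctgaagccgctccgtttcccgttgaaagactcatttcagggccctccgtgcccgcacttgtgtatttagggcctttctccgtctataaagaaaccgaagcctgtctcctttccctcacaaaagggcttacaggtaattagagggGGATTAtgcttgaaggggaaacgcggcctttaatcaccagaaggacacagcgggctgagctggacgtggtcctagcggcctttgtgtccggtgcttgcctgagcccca
Rdh8: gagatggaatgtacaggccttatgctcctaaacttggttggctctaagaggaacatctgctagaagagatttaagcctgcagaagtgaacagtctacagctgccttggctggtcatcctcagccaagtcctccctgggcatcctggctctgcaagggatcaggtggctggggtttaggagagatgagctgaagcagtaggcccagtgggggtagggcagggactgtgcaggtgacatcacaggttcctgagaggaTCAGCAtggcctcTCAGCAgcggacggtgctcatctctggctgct
Rdh12: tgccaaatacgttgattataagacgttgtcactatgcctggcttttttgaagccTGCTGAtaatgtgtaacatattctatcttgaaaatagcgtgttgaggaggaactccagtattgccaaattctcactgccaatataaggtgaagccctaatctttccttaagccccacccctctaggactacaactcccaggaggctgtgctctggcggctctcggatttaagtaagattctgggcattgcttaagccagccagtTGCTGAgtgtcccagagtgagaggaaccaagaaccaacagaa

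Counting from the start as +1, the Rbp3 window held GGATTA with its first base at -69 and TCAGCA at -155. GGATTA began at -58 in Abca4. In Rdh8, TCAGCA began at 6 and 19, and in Rdh12, TGCTGA began at -196 and 9, so each of these genes had a match inside the transcribed stretch. Rbp3 was the only one of the 9 with both motifs. Searched on both strands, TAATCC was present in 7.06% of 32851 windows of the same length, TGCTGA in 19.5% and both in 1.36%, and the 2 motifs do not share letters where they were found here. Of the other genes, the Rlbp1 window held TGCTGA at -250, and Rpe65, at chr3:159598931-159599230 on the plus strand, held GGATTA at -42. Its window is shown because it was the only one outside the photoreceptor genes with the CRX letters.
Rpe65: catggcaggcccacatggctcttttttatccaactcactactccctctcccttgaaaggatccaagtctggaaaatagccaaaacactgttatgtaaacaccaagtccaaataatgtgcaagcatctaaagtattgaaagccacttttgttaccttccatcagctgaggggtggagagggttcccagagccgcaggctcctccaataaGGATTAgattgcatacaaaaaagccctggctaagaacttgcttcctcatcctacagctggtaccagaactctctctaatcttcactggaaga
A match in such a window is a description of its letters and no evidence of binding.

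Among the photoreceptor genes, Rbp3 (GRCm38, chromosome 14, 33954003 to 33964216, plus strand) encodes the retinoid carrier of the interphotoreceptor matrix. It had 4328, 2442 and 390.1 CPM in Yap CKO 1, 2 and 3, 4001, 859 and 2146 CPM in control 1, 2 and 3, and 10214, 9686 and 7645 CPM in C57 1, 2 and the unnumbered library. The means were 2387 ± 1970 CPM in Yap CKO, 2335 ± 1580 CPM in control and 9182 ± 1357 CPM in C57 (SD, n = 3 each). All 6 P60 libraries lay below all C57 libraries, and the control range lay within that of Yap CKO. Rbp3 fell 3.88-fold in control against C57 (log2 -1.96, SE 0.48, adjusted p = 0.0128). Its log2 fold change in Yap CKO against C57 was -1.94 with an SE of 0.80, which was not called (adjusted p = 0.105). Between Yap CKO and control it was 0.03 with an SE of 1.04 (adjusted p = 0.993).

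Abca4 (chromosome 3, 122044443 to 122180123, plus strand), which clears retinal conjugates from the outer segment discs, had 548, 324 and 43.6 CPM in Yap CKO, 484, 101 and 239 CPM in control and 2055, 2256 and 2006 CPM in C57. C57 libraries were close together and above every P60 library, and the P60 groups overlapped. Abca4 fell 7.56-fold in control against C57 (log2 -2.92, SE 0.50, adjusted p = 0.00238), and its log2 fold change in Yap CKO against C57 was -2.78 (SE 0.85, adjusted p = 0.0463). The call in Yap CKO against C57 was lost without any 1 of 4 libraries, at an adjusted p of 0.144 without Yap CKO 2, 0.146 without C57 1, 0.0894 without C57 2 and 0.169 without the unnumbered C57 library.

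Rdh8 (chromosome 9, 20818503 to 20826117, plus strand), the retinal reductase of the outer segment, was the least abundant of the 4 per kilobase in each group. It had 27.9, 17.5 and 1.19 CPM in Yap CKO, 24.9, 7.31 and 13.9 CPM in control and 124, 99.1 and 86.4 CPM in C57. Yap CKO 3 was far below the rest, with 48 raw counts. Rdh8 fell 6.63-fold in control against C57 (log2 -2.73, SE 0.40, adjusted p = 0.00122). For Yap CKO against C57 the log2 fold change was also -2.73, with an SE of 0.97, and was not called (adjusted p = 0.0711).

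Rdh12 (chromosome 12, 79208914 to 79222665, plus strand), the retinal reductase of the inner segment, showed the largest change of the 10 genes against C57. It had 102, 52.3 and 13.5 CPM in Yap CKO, 84.8, 25.5 and 46.9 CPM in control and 794, 854 and 858 CPM in C57. No P60 library came near a C57 library, and the P60 groups overlapped. Rdh12 fell 15.7-fold in control against C57 (log2 -3.98, SE 0.41, adjusted p = 0.000247) and 14.9-fold in Yap CKO against C57 (log2 -3.90, SE 0.74, adjusted p = 0.00966). The call in Yap CKO against C57 was lost without Yap CKO 2 (adjusted p = 0.0521) or the unnumbered C57 library (adjusted p = 0.0645).

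Several other calls among these genes turned on single libraries. Rbp3 in Yap CKO against C57 was called without Yap CKO 1 (adjusted p = 0.0371) or Yap CKO 3 (adjusted p = 0.0114), and Rdh8 without Yap CKO 3 (adjusted p = 0.00130). In control against C57, Rbp3 was not called without control 3 (adjusted p = 0.0520) or C57 1 (adjusted p = 0.0651).

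Within P60, the 4 photoreceptor genes spread far more than the other genes except Lrat. The highest P60 library exceeded the lowest 11.1-fold for Rbp3, 12.6-fold for Abca4, 23.3-fold for Rdh8 and 7.53-fold for Rdh12, and it did so 6.34-fold for Lrat and 1.20-fold to 2.41-fold for the remaining 5. For all 4, and for none of the 6 others, the 6 P60 libraries ran in exactly the order of the rod marker mean, with Yap CKO 1 highest and Yap CKO 3 lowest (the plot against rod marker level). The summed rod markers spread 20.7-fold over the same libraries. The 12 summed cone markers ran in the same order and spread 3.11-fold, or 8.02-fold without Gnb3, which spread 1.42-fold on its own. Grk1, the most abundant of the 12 over the 9 libraries, weighed heavily on the sum without Gnb3. In Yap CKO 1 it had 545 of the 929 CPM, and it spread 18.6-fold. Single cone markers spread between 1.15-fold (Kcne2) and 27.4-fold (Pde6h), with Opn1sw, the short-wave cone opsin, at 17.6-fold. Gnat2 and Cngb3 spread 1.54-fold each, so the sums do not stand for every cone marker. In Yap CKO against C57, 12 of 20 rod markers and 7 of 12 cone markers were called lower, and in control against C57 all 20 rod markers and 11 cone markers were. All 20 rod markers and 11 cone markers had negative log2 fold changes in both comparisons. The median over the rod markers was -3.23 in Yap CKO against C57 and -3.21 in control against C57. The part of rod and cone content in these results was not tested for the comparisons with C57. With the rod marker level as a covariate in Yap CKO against control, the 4 log2 fold changes lay between -0.14 and 0.22 and none was called.

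**Figure D3:**
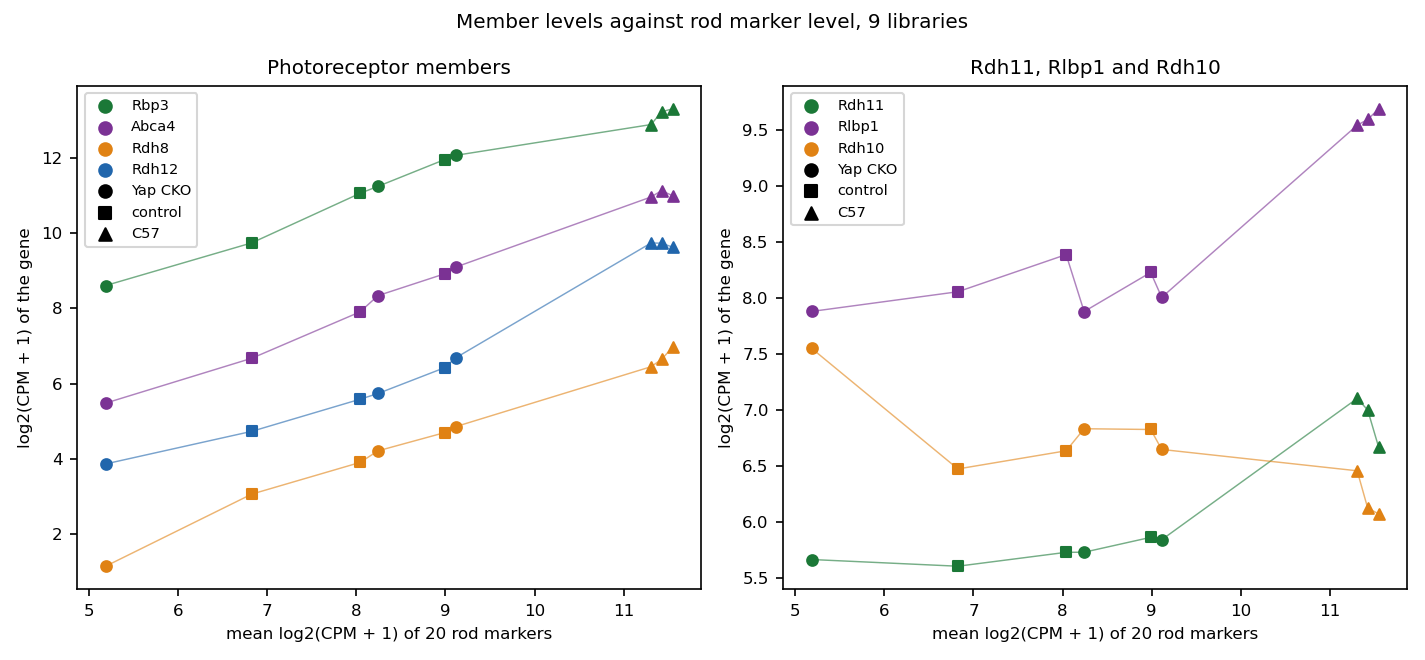
Level of each gene, as log2(CPM + 1), against the mean log2(CPM + 1) of 20 rod markers in the same library; symbols give the group, lines join the libraries of a gene in order of rod level. Over the 6 P60 libraries the photoreceptor genes climb step by step with rod level, an order that Abca4 and Rdh12 do not keep within C57, whereas Rdh11 and Rlbp1 are nearly level across the P60 libraries and Rdh10 is highest in Yap CKO 3, the library with the lowest rod level.

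Set against the rod markers of the same library, the photoreceptor genes did not keep 1 common ratio. Nor did the rod markers, whose log2 fold changes in control against C57 ran from -4.09 (Nr2e3) to -2.29 (Rp1). Abca4 at -2.92, Rdh8 at -2.73 and Rdh12 at -3.98 lay within that range, and Rbp3 at -1.96 lay outside it. The log2 level of Rbp3 minus the rod marker mean was 2.97, 3.01 and 3.43 in Yap CKO, 2.98, 2.92 and 3.03 in control and 1.77, 1.82 and 1.59 in C57, so every P60 library lay above every C57 library. For Abca4 the means of this difference were 0.13 ± 0.16 in Yap CKO, -0.12 ± 0.04 in control and -0.39 ± 0.14 in C57, with no overlap between any 2 groups. Rdh8 averaged -4.12 ± 0.13 in Yap CKO, -4.07 ± 0.27 in control and -4.74 ± 0.14 in C57, the P60 libraries again all higher. With a pseudocount of 0.25 CPM in place of 1, Yap CKO 3 came to -4.605 for Rdh8, within the C57 range of -4.87 to -4.59, so Yap CKO then overlapped C57 and control did not. Rdh12 ran the other way, with -2.09 ± 0.66 in Yap CKO, -2.37 ± 0.25 in control and -1.72 ± 0.18 in C57. Control libraries did not overlap C57, and Yap CKO overlapped C57 through Yap CKO 3. These differences were not tested (n = 3 each, SD).

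**Figure D4:**
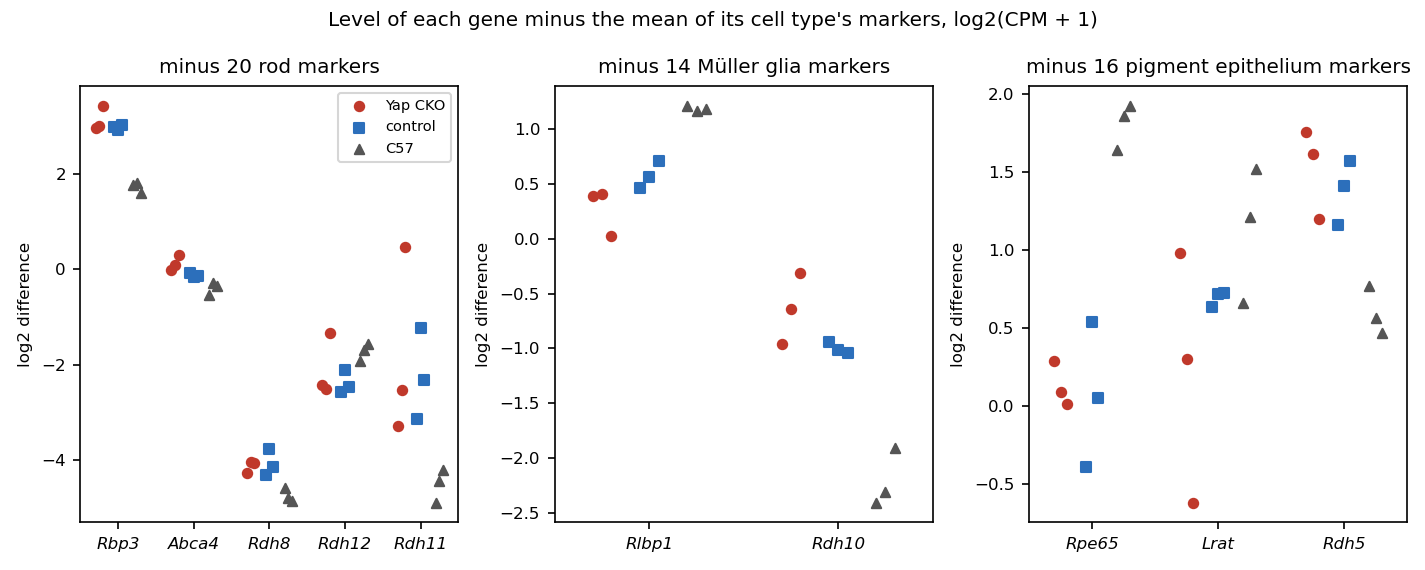
Log2(CPM + 1) of each gene minus the mean of the markers of the cell type named above each panel, for every Yap CKO, control and C57 library. Rbp3, Abca4, Rdh8 (for Yap CKO 3 only with this pseudocount), Rdh11, Rdh10 and Rdh5 are higher relative to the markers in the P60 libraries than in C57, and Rlbp1 and Rpe65 are lower. Rdh11, found in many cell types, is set against rod markers. Its difference runs from -3.28 to 0.48 within Yap CKO, where rod markers varied widely and Rdh11 did not.

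Rdh11 (chromosome 12, 79174337 to 79192293, minus strand) lies beside Rdh12 on the opposite strand, and exons of the 2 genes do not overlap in GENCODE M21. It had 56.2, 51.9 and 49.6 CPM in Yap CKO, 57.1, 47.5 and 51.9 CPM in control and 100.4, 127 and 136 CPM in C57. The P60 libraries were nearly equal, although rod markers varied widely among them, and all were below C57. Rdh11 fell 2.29-fold in control against C57 (log2 -1.20, SE 0.14, adjusted p = 0.000477) and by 1.20 on the log2 scale in Yap CKO against C57 (SE 0.15, adjusted p = 0.000557). Between Yap CKO and control the log2 fold change was 0.01 with an SE of 0.08 (adjusted p = 0.981), the smallest SE of the 10 genes.

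Rlbp1 and Rdh10, shared by Müller glia and the pigment epithelium, moved in opposite directions against C57. Rlbp1 (chromosome 7, 79374870 to 79387048, minus strand), the 11-cis retinoid binding protein CRALBP, had 255, 234 and 234 CPM in Yap CKO, 298, 265 and 333 CPM in control and 823, 771 and 744 CPM in C57. The 3 groups did not overlap, with Yap CKO lowest and C57 highest. Rlbp1 fell 3.22-fold in Yap CKO against C57 (log2 -1.69, SE 0.12, adjusted p = 4.86e-05) and 2.57-fold in control against C57 (log2 -1.36, SE 0.12, adjusted p = 0.000145). Both calls held in all the alternatives run. Its log2 fold change between Yap CKO and control was -0.31 with an SE of 0.09, which did not pass by edgeR's test (adjusted p = 0.1575), although it was negative under every alternative run. DESeq2 gave an adjusted p of 0.0475 for it, and the adjusted p ran from 0.0475 to 0.479 over the alternatives.

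Rdh10 (chromosome 1, 16105774 to 16133734, plus strand) oxidises all-trans retinol to retinal, a step shared with retinoic acid synthesis. It had 99.0, 113 and 186 CPM in Yap CKO, 112, 87.7 and 98.2 CPM in control and 66.2, 68.6 and 86.6 CPM in C57. Every P60 library was above every C57 library, but control 2 and the unnumbered C57 library were close. Rdh10 rose 1.80-fold in Yap CKO against C57 (log2 0.85, SE 0.24, adjusted p = 0.0225) and 1.37-fold in control against C57 (log2 0.45, SE 0.15, adjusted p = 0.0377). Marker lists of other retinal neurons shifted too, each of 10 genes. In control against C57 their median log2 fold changes were 0.33 (amacrine), 0.32 (ganglion cell) and -0.375 (bipolar). In Yap CKO against C57 they were 0.30, 0.41 and -0.405. The part of such shifts in the Rdh10 result was not tested. Yap CKO 3, the library with lens transcripts and the fewest rod transcripts, had the highest value, and without it the log2 fold change in Yap CKO against control was 0.09, against 0.41 (SE 0.26, adjusted p = 0.461) with it.

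The Rdh10 calls were less steady than those of Rlbp1. The one in Yap CKO against C57 was lost without C57 1 (adjusted p = 0.0730) or C57 2 (adjusted p = 0.0922). In control against C57 it was lost without control 1 (adjusted p = 0.125), control 3 (0.105), C57 1 (0.0538) or C57 2 (0.1395).

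The summed Müller glia markers were also lower at P60, at 6304 to 7700 CPM in Yap CKO, 5944 to 6814 CPM in control and 9379 to 10300 CPM in C57. Glul, the most abundant of them over the 9 libraries, weighed heavily on this sum. Its means were 769 CPM in Yap CKO, 934 in control and 4144 in C57, so the sum does not stand for every marker. Of the 14 Müller glia markers, 8 were called lower and 3 higher in each comparison with C57, and none was called in Yap CKO against control. The 12 reactive gliosis markers, led by Vim, Gfap and Serpina3n, summed to 3724 to 4279 CPM in Yap CKO, 3519 to 3847 CPM in control and 306 to 418 CPM in C57. All 12 had positive log2 fold changes against C57 in both P60 groups. Of these, 10 were called in Yap CKO against C57, 12 in control against C57 and none in Yap CKO against control. In that last comparison 5 had positive and 7 negative log2 fold changes. The 2 groups did not overlap for 6 of the 12 (25% of all genes tested). Gfap and Lif, picked out after their values were seen, were at 1.07 (adjusted p = 0.0533) and -1.28 (adjusted p = 0.0738). For these 2 genes the authors' deposited table gives adjusted p-values of 0.0081 and 5.2e-07. The part of the reactive gliosis markers in the Rlbp1 and Rdh10 results was not tested. Relative to the mean of the Müller glia markers, Rlbp1 was at 0.39, 0.40 and 0.02 in Yap CKO, 0.46, 0.56 and 0.71 in control and 1.21, 1.17 and 1.18 in C57 on the log2 scale. Every Yap CKO library lay below every control library, and every control library below every C57 library. Rdh10 by the same measure averaged -0.64 ± 0.33 in Yap CKO, -1.0 ± 0.05 in control and -2.21 ± 0.26 in C57. The sizes depended on how the markers were summarised. With the median over the markers, the Rlbp1 difference was -1.68 in Yap CKO minus C57 and -1.27 in control minus C57, where the mean gave -0.91 and -0.61. For Rdh10 the median gave 0.80 and 0.54, where the mean gave 1.57 and 1.21.

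Among the pigment epithelium genes, Rpe65 (chromosome 3, 159599175 to 159625321, plus strand), the isomerase that forms 11-cis retinol, showed the clearest change. It had 8.69, 6.80 and 4.13 CPM in Yap CKO, 4.71, 8.08 and 5.48 CPM in control and 34.4, 35.0 and 35.9 CPM in C57. The C57 libraries were almost equal and far above all P60 libraries, and the P60 groups overlapped. Rpe65 fell 5.67-fold in control against C57 (log2 -2.50, SE 0.21, adjusted p = 0.000102), and its log2 fold change in Yap CKO against C57 was -2.42 (SE 0.25, adjusted p = 0.000255). Between Yap CKO and control it was 0.10 (adjusted p = 0.918).

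Lrat (chromosome 3, 82892579 to 82903973, minus strand), which esterifies retinol for storage, had 14.7, 8.04 and 2.31 CPM in Yap CKO, 10.6, 9.30 and 9.33 CPM in control and 17.0, 21.99 and 26.8 CPM in C57. All P60 libraries lay below C57. Control libraries were even, whereas Yap CKO 1 was near C57 and Yap CKO 3 had 93 raw counts. Lrat fell 2.22-fold in control against C57 (log2 -1.15, SE 0.18, adjusted p = 0.00166). The log2 fold change in Yap CKO against C57 was -1.39 with an SE of 0.59 and was not called (adjusted p = 0.102), though it was without Yap CKO 1 (adjusted p = 0.0185).

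Rdh5 (chromosome 10, 128913593 to 128922888, minus strand), the 11-cis retinol dehydrogenase, had 25.8, 21.5 and 10.7 CPM in Yap CKO, 15.7, 15.7 and 17.6 CPM in control and 18.3, 13.7 and 12.4 CPM in C57. All 3 groups overlapped. Its log2 fold change was 0.39 in Yap CKO against C57 (adjusted p = 0.350), 0.16 in control against C57 (adjusted p = 0.448) and 0.24 in Yap CKO against control (adjusted p = 0.758). Without Yap CKO 3 it was called higher in Yap CKO against control (log2 0.53, adjusted p = 0.0280) and against C57 (adjusted p = 0.0438), and without C57 1 it was called in control against C57 (adjusted p = 0.0412). Rdh5 shares 720 exonic bases with Bloc1s1 on the same strand, so its counts are uncertain.

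Pigment epithelium is not part of the neural retina, and its RNA in these libraries varied. The 16 pigment epithelium markers summed to 133 to 310.1 CPM in Yap CKO, 205 to 267 CPM in control and 354 to 426 CPM in C57. In Yap CKO against C57, 6 were called lower and 2 higher, and in control against C57, 9 lower and 3 higher. None of the 16 was at 0 in any library. Relative to the mean of these markers, Rpe65 averaged 0.13 ± 0.14 in Yap CKO, 0.07 ± 0.46 in control and 1.81 ± 0.15 in C57 on the log2 scale, every P60 library being below every C57 library. Lrat averaged 0.22 ± 0.80 in Yap CKO, 0.69 ± 0.05 in control and 1.13 ± 0.43 in C57, with overlap between each pair. Rdh5 averaged 1.52 ± 0.29 in Yap CKO, 1.38 ± 0.21 in control and 0.60 ± 0.15 in C57 and was higher than C57 in every P60 library. The part of adhering pigment epithelium in the results for these genes, Rlbp1 and Rdh10 was not tested.

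Other genes of retinoid transport and processing, 25 in a list that leaves out the 10, gave a mixed picture against C57. Of 15 tested in Yap CKO against C57, 6 were called lower and 2 higher, against 20.2% and 20.3% of all genes tested. In control against C57, 15 were tested, and 9 were called lower and 3 higher, against 22.4% and 23.1% of all genes. In Yap CKO against control none of 16 was called. The pigment epithelium opsin Rrh had the largest fall in the list, with 3.77, 3.10 and 2.09 CPM in Yap CKO, 2.84, 2.86 and 3.05 CPM in control and 25.4, 28.9 and 26.9 CPM in C57. Its log2 fold change was -3.17 in Yap CKO against C57 (adjusted p = 4.85e-05) and -3.19 in control against C57 (adjusted p = 6.92e-06). Rgr, the retinal G protein-coupled receptor of the pigment epithelium and Müller glia, fell in control against C57 (log2 -1.19, adjusted p = 0.000573), as did the retinol carrier partner Ttr (log2 -0.93, adjusted p = 0.000282). In Yap CKO against C57 neither Rgr (log2 -1.03, adjusted p = 0.0782) nor Ttr (log2 -0.71, adjusted p = 0.230) was called. Rrh, Ttr and Stra6 also belong to the pigment epithelium marker list.

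Retinoic acid genes, which draw on the same retinal, were more often called higher than lower against C57. Of 17 in the list, 7 were called higher and 1 lower among 15 tested in Yap CKO against C57. Over all genes tested there, 20.3% were called higher and 20.2% lower. In control against C57, 7 were called higher and 1 lower among 16 tested, where 23.1% of all genes were called higher and 22.4% lower. None of 16 was called in Yap CKO against control, where 6 passed an unadjusted p of 0.05, as did 2950 of the 16539 genes tested. Aldh1a3, which oxidises retinal to retinoic acid, had 104, 175 and 196 CPM in Yap CKO, 74.0, 86.1 and 50.8 CPM in control and 0.34, 0.22 and 0.64 CPM in C57. It rose in Yap CKO against C57 (log2 8.59, SE 0.40, adjusted p = 8.13e-06) and in control against C57 (log2 7.44, SE 0.35, adjusted p = 1.41e-05). Its Yap CKO and control libraries did not overlap, and the log2 fold change of 1.17 did not pass here (SE 0.31, adjusted p = 0.158), whereas the authors' deposited table gives 1.17 with an adjusted p of 0.00056. Aldh1a2, a second enzyme of that step, and Cyp26a1, which degrades retinoic acid, rose by smaller amounts from low levels, with log2 fold changes of 4.09 and 1.95 in Yap CKO against C57 and 3.75 and 2.26 in control against C57. Rxra, a partner of retinoic acid receptors, fell in both (log2 -0.74 in Yap CKO against C57 and -0.78 in control against C57). None of the 10 visual cycle genes is among the 305 genes of the authors' deposited table. Of the 2 further retinoid lists 4 genes are, among them Fabp5, a fatty acid binding protein in the retinoic acid list. For it that table gives a log2 fold change of 0.74 with an adjusted p of 0.0055 in Yap CKO against control. Here Fabp5 was at 0.73 and did not pass (SE 0.17, adjusted p = 0.108).

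**Figure D5:**
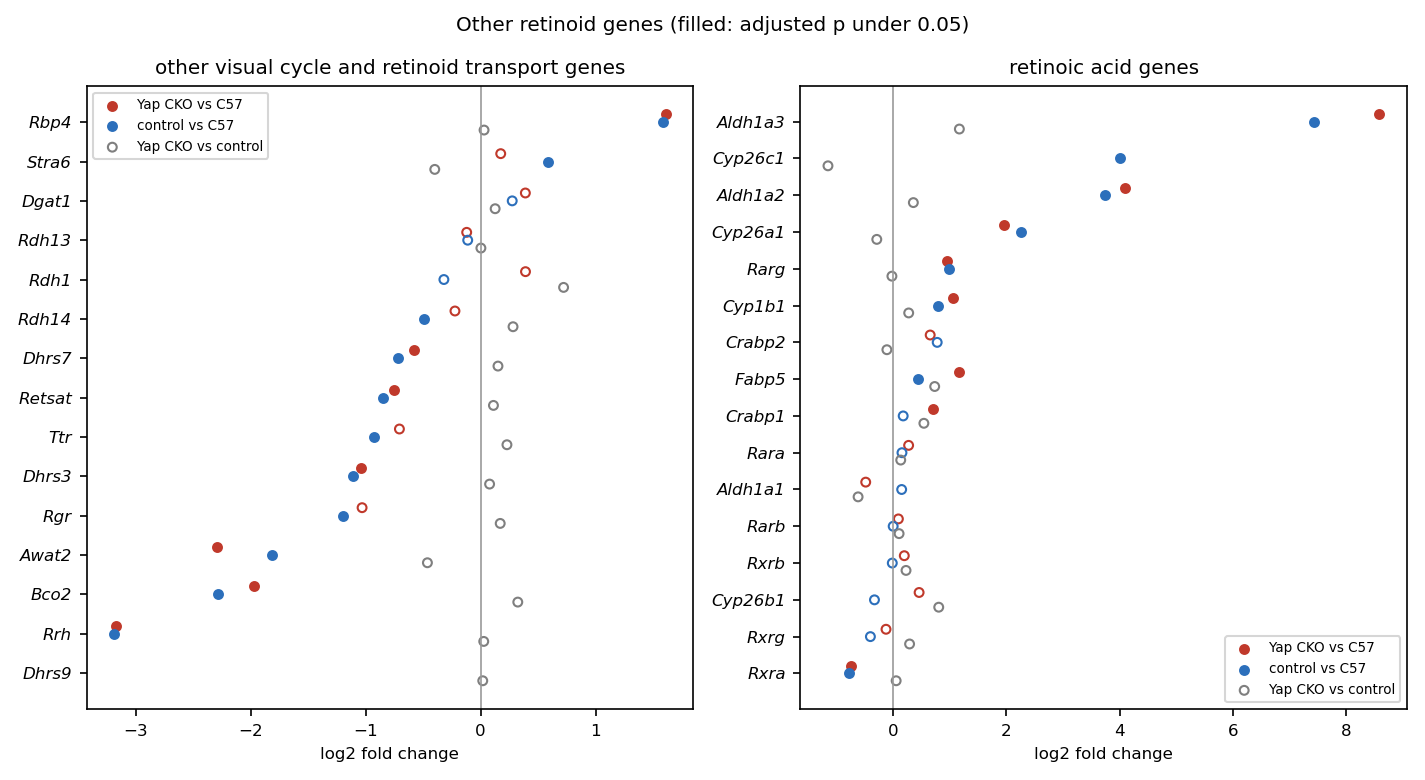
Log2 fold changes of tested genes of 2 further lists (1 gene of the left list is not shown), with Yap CKO against C57 in red, control against C57 in blue and Yap CKO against control in grey; filled points passed an adjusted p of 0.05. Rrh, Bco2 and Awat2 lie lowest and Rbp4 highest on the left, Aldh1a3 lies highest on the right, and no grey point is filled.

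Genes whose pattern was most like each of the 10 were taken by Pearson's r of deviations from the group means of log2(CPM + 1), over 9 libraries and 11735 genes with a mean of at least 5 CPM. These values are descriptions across libraries that share rod content and scaling, and carry no test. Each was picked as among the highest of very many values from few libraries, so a high r does not show a shared role. Rbp3 was most like Prph2, the structural protein of outer segment discs (r = 0.9985), and Vtn. Abca4 was most like Cdhr1 (r = 0.999), Nxnl1 and the rod factor Nrl. Rdh8 was most like Pcare (r = 0.998), and Rdh12 was most like 6430562O15Rik (r = 0.998) and Gpsm2. Lrat was most like 1700123O20Rik (r = 0.977), Rdh10 most like Chd4 (r = 0.987), Rdh11 most like Gm16701 (r = 0.994), Rpe65 most like Gfer (r = 0.986) and Rdh5 most like Med31 (r = 0.990). Rlbp1 had the lowest leading value, r = 0.951 with Slc8b1, and its 3 most similar genes ended at r = 0.900 with Zdhhc16.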

How the data were processed

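Per the labels, libraries came from 1 µg of total RNA by a directional TruSeq protocol. Per the submitters' processing notes, GRCm38, featureCounts, edgeR and HISAT2 2.1.0 were used. The annotation and strand setting used in counting are not stated in the sources at hand. The deposited table held raw read counts, with no normalization by the authors, for 47729 identifiers, of which 47224 matched a symbol. The authors' deposited comparison table gave log2 fold changes, p-values and adjusted p-values, per the file headers. Its 9 per-library columns were not used. One C57 column matched no sample description and is called the unnumbered C57 library.

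Each comparison was fitted on its 6 libraries with edgeR 4.0.16 in R 4.3.3 (filterByExpr with minimum count 10 and total 15, TMM, robust quasi-likelihood F-test). P-values were adjusted by Benjamini-Hochberg over all genes tested, with a threshold of 0.05, and SE is the log2 fold change divided by the root of F. All 10 genes passed the filter in each comparison. CPM is TMM-scaled over the 9 libraries, and CPM per kb divides it by the union exon length in GENCODE M21. Levels relative to markers used log2(CPM + 1). The fit was tested on simulated data. Alternatives were other scalings and filters, DESeq2 1.42.0, limma-voom (limma 3.58.1), a fit of all 9 libraries, the replicate block, a rod covariate, thinning, each library left out, and bias-adjusted deviances. The last, the alternatives for Yap1 and the cone sum without Gnb3 were chosen after seeing the data. Genes were named by rule: all 10, Yap1, up to 4 per direction of the other 2 retinoid lists with the smallest p, and the 3 most similar genes; not every gene the rule selects is described, and 1 gene of these lists, kept in the counts, is not reported here. The 10 genes and all lists were chosen with earlier results of these data known.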

Additional observations from a re-analysis of the deposited data

How the results depend on the processing

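Against C57, no log2 fold change of the 10 genes changed sign under any alternative run. In control against C57, 9 of the 10 genes were called, 7 to 9 with a library left out and 5 with all 9 libraries in one fit, which lost Rbp3, Rdh8, Rdh10 and Lrat. In Yap CKO against C57, 6 were called and 4 to 9 with a library left out; over all genes, 6419 were called and 3905 to 8013 with a library left out (3905 without Yap CKO 2, 3986 without C57 2). Over all genes in control against C57, 7202 were called and 5084 to 9255 with a library left out. With no count filter the median log2 fold change of all genes was 0.19 in control against C57 and 0.23 in Yap CKO against C57, and Rbp3 in control (adjusted p = 0.0916) and Abca4 in Yap CKO (adjusted p = 0.144) were not called. DESeq2 called Rbp3 and Rdh8 in Yap CKO against C57 (adjusted p = 0.0153 and 0.0246), limma-voom called Rbp3, Rdh8 and Lrat there (0.0288, 0.0154 and 0.0409), and Rdh8 also passed with the CPM filter (0.0406) and with thinned counts (0.0482). Yap CKO against control depended far more on the processing. The 33 calls over all genes became 15 with RLE scaling, TMM without the 50 highest genes, the CPM filter, limma-voom or bias-adjusted deviances, 17 with upper-quartile scaling, 60 with all 9 libraries, 343 with no filter, 919 with DESeq2, 1654 with the rod covariate and 0 to 1473 with a library left out. None of the 10 genes was called there, against 1 with DESeq2 (Rlbp1), and 0 to 1 with a library left out (Rdh5 without Yap CKO 3). Signs turned in that comparison only, where the main setting called none of the 10; Rdh5, called without Yap CKO 3, was among them. Without a filter, Rdh8 was at -0.0027 and Rdh11 at -0.0039; limma-voom gave Rbp3 -0.28, Abca4 -0.20, Rdh8 -0.71 and Rdh12 -0.17; the rod covariate gave Rdh8 -0.14. With a library left out, the log2 fold changes ran from -0.72 to 0.65 for Rbp3, -0.58 to 0.83 for Abca4, -0.72 to 0.56 for Rdh8, -0.67 to 0.61 for Rdh12, -0.054 to 0.067 for Rdh11, -0.16 to 0.36 for Rpe65, -0.023 to 0.53 for Rdh5 and -0.91 to 0.21 for Lrat. The cause of these shifts was not tested. Same-numbered Yap CKO and control libraries deviated together at r = 0.624, -0.144 and 0.0057, and only Yap CKO 1 correlated best with the control of its own number. Rod content also varied between these libraries, so such values cannot decide whether the replicate numbers pair them. The replicate block gave 45 calls over all genes and none of the 10, with Rbp3 at -0.22, Abca4 at -0.14, Rdh8 at -0.42 and Rdh12 at -0.12. Against C57, the block used 4 libraries, those numbered 1 and 2, and so left out Yap CKO 3 or control 3 and the unnumbered C57 library. These numbers come from different series. In this small fit, 10 of the 10 were called in Yap CKO and 8 in control, Abca4 not being called (adjusted p = 0.22). There, 6900 of 15993 genes had an unadjusted p under 0.05 in Yap CKO against C57, and 7073 of 15907 in control against C57. For Yap1 in Yap CKO against control, the block gave an adjusted p of 0.0732.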

Other observations

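Some retinoid genes outside the 10 separated Yap CKO from control libraries without passing the adjusted threshold, and were picked out after their values were seen. Crabp1, a retinoic acid binding protein, had 18.7, 19.8 and 18.7 CPM in Yap CKO and 12.4, 14.3 and 12.4 CPM in control, a log2 fold change of 0.54 (SE 0.09, adjusted p = 0.0676). Stra6, the cell surface retinol transporter, had 26.5, 27.6 and 30.4 CPM in Yap CKO and 39.7, 33.8 and 37.61 CPM in control, a log2 fold change of -0.40 (SE 0.09, adjusted p = 0.0949). Without overlap were 4 of the 16 tested genes of retinoid transport and processing and 6 of the 16 tested retinoic acid genes, where 25% of all genes tested did not overlap.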
